A study of Glycine max with 4 samples.

Results

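The regions described here are the 1 Mb windows of the soybean genome that held fewer than 600 probes of the array, called probe-poor windows below. Each chromosome was divided into windows of 1 Mb from its first base, each probe was counted in the window that holds its start, and the incomplete last window of each chromosome was left out. Of 938 whole windows, 291 (31.0%) were probe-poor, and these held 95592 probes, or 10.2% of the 933062 probes in whole windows. The remaining 647 windows held 837470 probes. The choice of windows used the number of probes alone and no measured signal.

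Leaf DNA of 4 soybean plants carrying fast neutron mutations was set against that of their wild-type parent, M92-220, by array comparative genomic hybridization (aCGH), with 1 plant on each array. The groups were P06 (CM7F040P06, plants 35 and 45), P05 (CM7F040P05, plants 15 and 39) and the common reference, which the labels call M92-220-Long. Fast neutrons are a mutagen that breaks DNA and leaves deletions and rearrangements. Each plant was read once, and Cy3 always labeled the mutant plant and Cy5 the parent line, so that dye and genotype cannot be told apart in a ratio. The labels give neither the ages of the plants nor how the lines, or the plants of a line, are related, so p-values here measure the spread between single plants or arrays.

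Soybean chromosomes carry their genes mostly toward both ends. The middle of each chromosome is pericentromeric heterochromatin, which is rich in repeats and retrotransposons, poor in genes, densely methylated and rarely recombines. Probes for aCGH must match 1 place in the genome, so repeats leave few of them. The study's methods also describe a design that places probes preferentially in genic sequence. A large deletion in such a stretch can therefore rest on few probes, and a short one can fall between them. The gene content of the windows was not analyzed here.

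Probe-poor windows occurred on all 20 chromosomes, with 8 (chromosomes 11 and 13) to 20 (chromosomes 4, 10 and 14) per chromosome and a median of 15. They lay in 62 blocks of neighboring windows, and 69.8% of them belonged to the longest block of their chromosome. The longest block comprised 19 windows, from 20 to 39 Mb on chromosome 4. When each chromosome was divided into 10 equal stretches, 72.7% of the windows were probe-poor between 50 and 60% of its length, 59.6% between 40 and 50% and 54.3% between 60 and 70%. In the stretch at the left end the share was 1.08%, and at the right end it was 0% (0 of 95 windows). Chromosome 13 departed from this, with probe-poor windows from 3 to 10 Mb and again up to 13 Mb, near one end of the sequence. Pooled over chromosomes, the probe-poor windows thus lay toward the middle, which is where pericentromeres lie on most soybean chromosomes, but no centromere or repeat marker was used here to check the label.

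**Figure D1:**
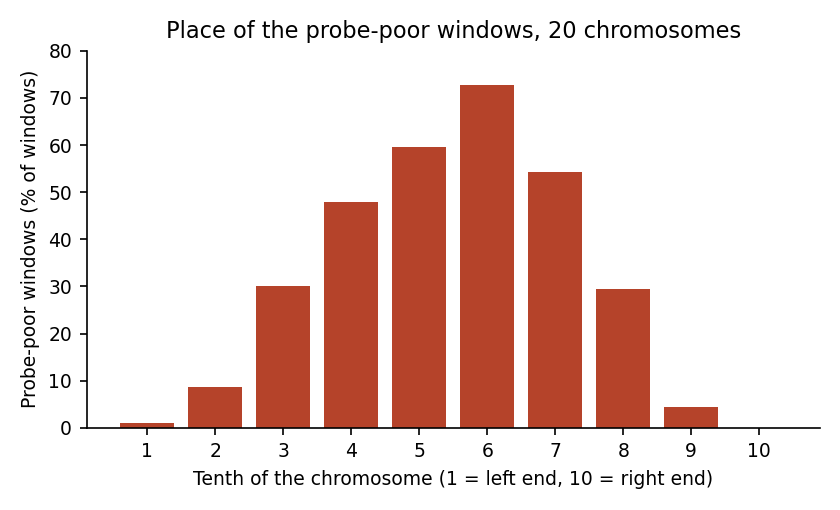
Percent of whole 1 Mb windows that held fewer than 600 probes (y axis), in 10 equal stretches from the left to the right end of the chromosome (x axis), over 20 chromosomes and 938 windows. The share is highest between 50 and 60% of the length, at 72.7%, and is 1.08% at the left end and 0% at the right end.

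A probe-poor window held 30 to 594 probes with a median of 327, and a remaining window 602 to 1911 with a median of 1378. The windows with the fewest probes were chromosome 5 at 16 to 17 Mb with 30 probes, chromosome 13 at 3 to 4 Mb with 32, chromosome 6 at 33 to 34 Mb with 41, chromosome 7 at 22 to 23 Mb with 44 and chromosome 3 at 15 to 16 Mb with 65. None of these 5 windows had a lost probe in any plant. Just inside the limit of 600 were windows with 594 probes (chromosome 2, 17 to 18 Mb), 592 (chromosome 5, 25 to 26 Mb) and 589 (chromosome 10, 10 to 11 Mb). Just outside were windows with 602 (chromosome 15, 35 to 36 Mb), 603 (chromosome 14, 34 to 35 Mb) and 604 (chromosome 20, 5 to 6 Mb), and all 6 windows at the limit were free of lost probes.

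The probes in the 2 kinds of window were of the same length and similar brightness but differed in their gaps. Probe length ran from 45 to 60 bp with a median of 60 bp in both. The median gap to the next probe in the same window was 487 bp in probe-poor windows and 411 bp in remaining windows, whereas the 95th percentile was 10638 bp and 1627 bp and the largest gap 707.6 kb and 230.8 kb. A set of 3 neighboring probes, the fewest that the interval search below can call, spanned up to 24001 bp at the 95th percentile in probe-poor windows and up to 3582 bp in remaining windows. The typical gap was thus somewhat longer in probe-poor windows, and the longest gaps were longer by far more. The median Cy5 signal was 1012 to 1024 in probe-poor windows and 1042 to 1053 in remaining windows over the 4 arrays.

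Losses were counted first as lost probes, meaning probes with a log2 ratio of mutant over M92-220 of −2 or lower. In probe-poor windows, plant 35 had 1179 lost probes, plant 45 had 1181, plant 15 had 465 and plant 39 had 72. In remaining windows the counts were 91, 94, 88 and 326 for the same plants. Both P06 plants and P05 plant 15 thus had most of their lost probes in probe-poor windows (92.8%, 92.6% and 84.1%), and P05 plant 39 had 18.1% of them there.

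Per 1000 probes, probe-poor windows lost 12.3 in plant 35, 12.4 in plant 45, 4.86 in plant 15 and 0.753 in plant 39, and remaining windows lost 0.109, 0.112, 0.105 and 0.389. The ratio of these rates ran from 1.93 in plant 39 to 113.5 in plant 35. Over all probes of the array, 0.133% were lost in plant 35, 0.134% in plant 45, 0.0581% in plant 15 and 0.0418% in plant 39, against which the members' shares were 1.23%, 1.24%, 0.486% and 0.0753%. The mean difference was 7.40 ± 5.87 lost probes per 1000 (SD, n = 4 arrays) and positive in 4 of 4 arrays. An exact sign-flip permutation test over the 4 arrays gave p = 0.13 (two-sided), the smallest p that 4 arrays allow, so that none of the tests of this kind could pass 0.05. With the window starts shifted, the mean difference was 6.93 per 1000 and positive in 3 of 4 arrays. In probe-poor windows, 99.4% of the lost probes of plant 45 and 98.5% of those of plant 15 were also lost in plant 35. The 4 arrays are thus not independent readings of losses, here or in the tests per Mb below.

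Per Mb, where the few probes of a probe-poor window count against it, the rates were 4.05, 4.06, 1.60 and 0.247 lost probes in probe-poor windows for plants 35, 45, 15 and 39, against 0.141, 0.145, 0.136 and 0.504 in remaining windows. Plant 39 reversed the order of the other plants. The mean difference was 2.26 ± 2.04 per Mb (SD, n = 4 arrays; exact permutation test, two-sided p = 0.25), with 3 of 4 arrays higher in probe-poor windows.

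The second measure was the length of deleted intervals, found by a search modeled on ADM-2, the aberration caller named in the methods, which looks for runs of probes whose weighted ratio departs from 0. Intervals of at least 3 probes, a score of at least 6 and a mean of −2 or lower were called deleted. In probe-poor windows these covered 4406 kb in plant 35, 4381 kb in plant 45, 1645 kb in plant 15 and 214.1 kb in plant 39. In remaining windows they covered 74.9, 78.9, 77.7 and 185.0 kb. Probe-poor windows thus held 98.3%, 98.2%, 95.5% and 53.7% of the deleted length, on 31.0% of the windows. The length of an interval includes the gaps between its probes, which are longer in probe-poor windows, so it depends on probe spacing.

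The deleted length amounted to 15.1, 15.1, 5.65 and 0.736 kb per Mb in probe-poor windows (plants 35, 45, 15 and 39) and to 0.116, 0.122, 0.120 and 0.286 kb per Mb in remaining windows. The mean difference was 8.99 ± 7.23 kb per Mb (SD, n = 4 arrays; exact permutation test, two-sided p = 0.13), positive in 4 of 4, and with the window starts shifted it was 8.68 kb per Mb and positive in 3 of 4. With plain runs of 3 or more lost probes in place of the search, the mean difference was 4.94 kb per Mb. An interval in a probe-poor window had a median length of 92.8 kb in both P06 plants and reached 983.2 kb with 144 probes.

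**Figure D2:**
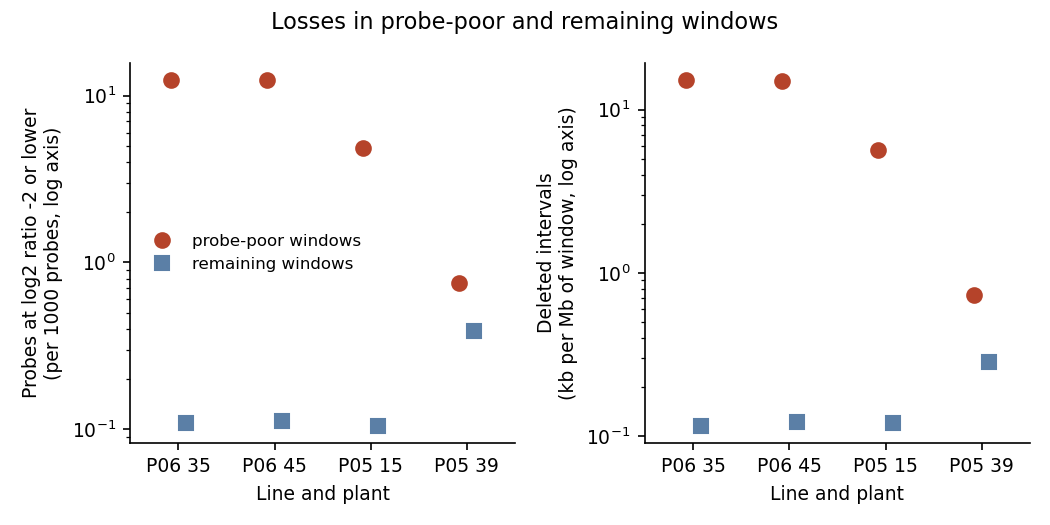
Lost probes (log2 ratio −2 or lower) per 1000 probes (left, log axis) and deleted intervals in kb per Mb of window (right, log axis), for each plant. Circles are probe-poor windows and squares remaining windows; each point is 1 array. With these window starts, probe-poor windows are higher in every plant (with shifted starts in 3 of 4), by 1.93 times in plant 39 and 113.5 times in plant 35 on the left.

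By probe count, the losses peaked in windows of 100 to 200 probes, at 46.4, 46.3 and 31.4 lost probes per 1000 in plants 35, 45 and 15 and 0 in plant 39. The 11 windows under 100 probes had none in any plant, and the 49 windows of 500 to 600 probes had 1, in plant 45. The 54 windows of 100 to 200 probes held 384 lost probes of plant 35. Of these, 124 lay on chromosome 7 at 26 to 27 Mb, and 128 and 132 on chromosome 10 at 15 to 16 and 20 to 21 Mb. In plant 15 the same chromosome 10 windows held 127 and 133 of 260. The peak thus rests on a few windows and is not a trend over windows.

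These losses were concentrated in a few windows. Among the 291 probe-poor windows, 280 had no lost probe in plant 35, 279 in plant 45, 285 in plant 15 and 288 in plant 39. There were 12 windows with 3 or more lost probes in some plant, and they formed 5 loci on chromosomes 7, 10 and 14. All but 1 to 2 lost probes of each plant lay in these loci. Without chromosomes 7 and 10, which hold most of these windows, the mean difference was 0.202 lost probes per 1000 (higher in 4 of 4 arrays), −0.051 per Mb (higher in 1 of 4) and 0.161 kb deleted per Mb (higher in 1 of 4). Leaving out chromosome 7 alone gave 3.87 per 1000, 1.16 per Mb and 4.52 kb per Mb, each higher in 4 of 4 arrays.

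The longest locus was chromosome 7 from 25564698 to 29366100 (Glyma.Wm82.a2.v1 coordinates, as are all below), 3801 kb with 1000 probes in 5 probe-poor windows. Its probes averaged −4.05 in plant 35 and −4.09 in plant 45, against −0.0014 in plant 15 and −0.038 in plant 39. Of the 1000 probes, 718 were lost in plant 35 and 719 in plant 45, and 0 in either P05 plant. The locus was low in both P06 plants and near 0 in both P05 plants. The loci here and below were built from intervals called deleted in these same arrays, here in the P06 plants only. A low mean in the plants with called intervals thus follows from that choice and is a description.

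Within that locus the losses were not continuous. The windows at 26 to 27 Mb and 28 to 29 Mb had 84.9% and 86.5% of their probes lost in plant 35, those at 25 to 26 Mb and 27 to 28 Mb had 46.8% and 52.0%, and that at 29 to 30 Mb had 5.62%. Plant 45 gave 84.9%, 87.2%, 46.8%, 51.8% and 5.62% for the same windows. The locus starts at 25564698 and ends at 29366100, so the windows at 25 to 26 Mb and 29 to 30 Mb also hold probes outside it. Their lower shares are therefore not a measure of gaps within the locus. In each P06 plant 13 intervals were called, together 2754 kb in plant 35 and 2748 kb in plant 45, with 12 stretches between them. The largest interval ran from 25960198 to 26943434 with a mean of −5.18 in plant 45.

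Directly after that interval came a stretch of 342.3 kb, 26943435 to 27285754, in which no probe was lost in either P06 plant. Its 141 probes had a median of 0.0066 in plant 35 (range −0.44 to 0.46) and 0.044 in plant 45 (−0.36 to 0.53), compared with 0.0021 in plant 15 and −0.017 in plant 39. It was the only one of the 12 stretches that held 10 or more probes. The other 11 stretches had 3 to 8 probes each, with medians between −2.05 and −0.65 in plant 35, and the longest of them (449.3 kb, 28861971 to 29311247) rested on 4 probes.

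**Figure D3:**
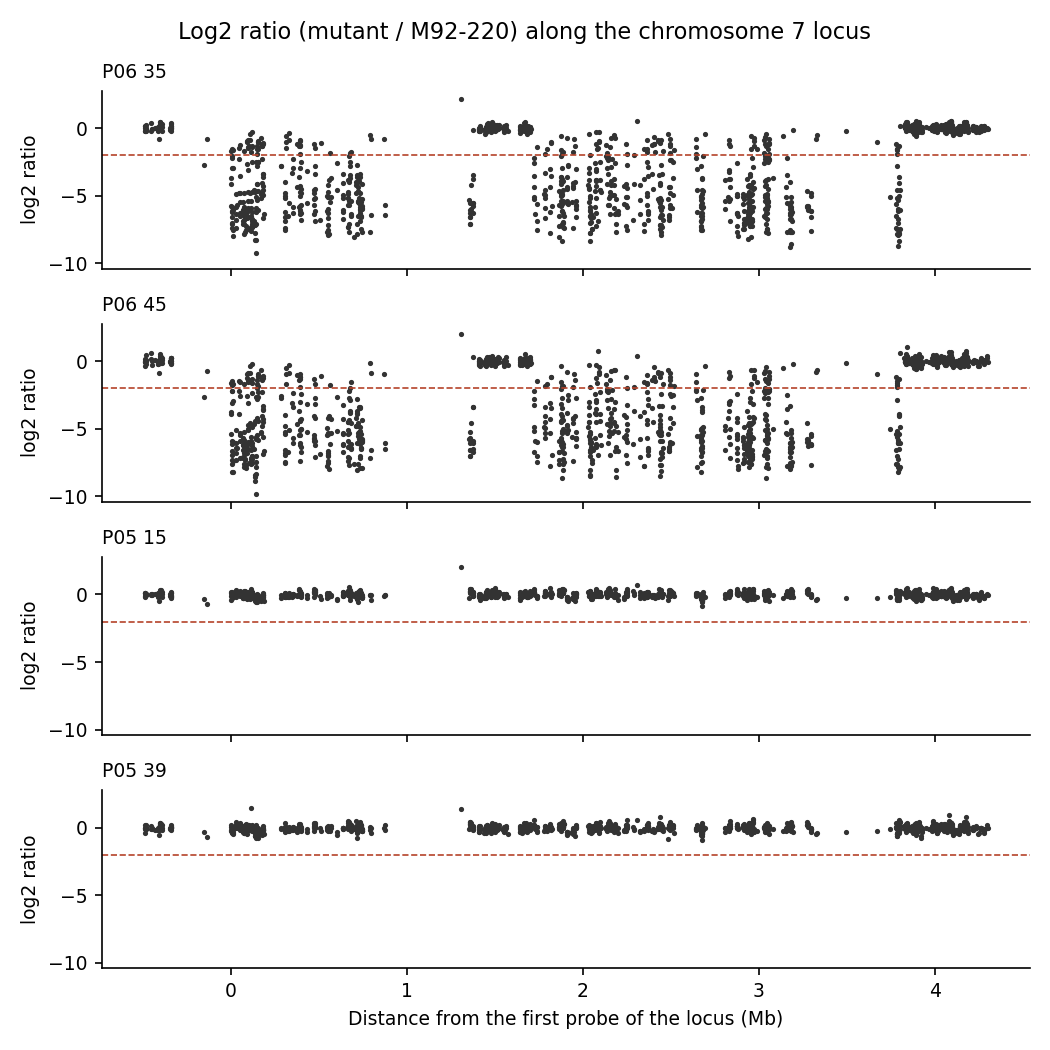
Log2 ratio of mutant over M92-220 (y axis) of each probe along the chromosome 7 locus and the 0.5 Mb on either side, by distance in Mb from the first probe of the locus (x axis), 1 panel per plant; the dashed line marks −2. Both P06 plants are low over most of the locus, with a return to about 0 over 141 probes, and nearly all probes of both P05 plants stay near 0.

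Chromosome 10 held a pair of loci that were deleted in plants 35, 45 and 15 and not in plant 39. The first spanned 14796450 to 15370810 (574.4 kb, 249 probes) and averaged −4.95, −5.06 and −5.00 in plants 35, 45 and 15, against −0.052 in plant 39. The second spanned 19986042 to 21290005 (1304 kb, 264 probes) and averaged −4.83, −4.87 and −4.76 in these plants, against −0.021 in plant 39. P05 plant 15 thus carried the values of the P06 plants at both loci, while P05 plant 39 did not.

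Chromosome 14 held the other 2 loci. At 26774074 to 26801907 (27.8 kb, 18 probes) the means were −3.05, −3.10 and −3.13 in plants 35, 45 and 15 and 0.031 in plant 39. At 14337661 to 14594509 (256.8 kb, 84 probes) only plant 39 was low, with a mean of −4.22, 70 lost probes and 3 intervals, compared with means of 0.074, 0.101 and 0.047 in plants 35, 45 and 15. No other locus of the probe-poor windows had an interval called in plant 39.

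Lost probes in these loci had ordinary signals in M92-220 and signals near the background in the mutant. Their median Cy5 signal ran from 735.2 to 1207 over loci and plants, and their median Cy3 signal from 12.7 to 32.6. The lowest Cy3 signal of a spot that the scanner software marked as well above background was 34.4 to 42.7 on the 4 arrays. Of the lost probes in probe-poor windows, 74.0%, 73.9%, 77.4% and 73.6% were not well above background in Cy3 in plants 35, 45, 15 and 39, so the depth of most ratios below −2 is a bound set by background and not a measured level.

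The same probes were lost in the plants that shared a locus. Plants 35 and 45 shared 1174 lost probes in probe-poor windows, which is 99.6% of those of plant 35 and 99.4% of those of plant 45. Plant 15 shared 458 with plant 35, which is 98.5% of the lost probes of plant 15 and 38.8% of those of plant 35. Plant 39 shared 0 of its 72 with any other plant. Over probes measured on all arrays, 716 were lost in both P06 plants alone, 457 in both P06 plants and plant 15, 72 in plant 39 alone, 17 in other combinations and 0 in all 4 plants. In remaining windows 35 probes were lost in all 4 plants.

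The distance from a locus to the nearest probe outside it limited how well its ends were placed. The gap was 137052 bp on the left and 2089 bp on the right of the chromosome 7 locus. On chromosome 10 the gaps were 2619 and 30196 bp for the first locus and 9802 and 69147 bp for the second. On chromosome 14 they were 428 and 24135 bp for the locus of plant 39 and 67843 and 6171 bp for the other. Of these gaps only that of 428 bp was shorter than the median gap of 487 bp in probe-poor windows. None of the first probes outside was lost in any plant, and the one to the left of the chromosome 7 locus was between −0.76 and −0.67 in all 4 plants. The next probe beyond that one, Gm_CUST_P11106824, was at −2.68 and −2.66 in plants 35 and 45, against −0.33 and −0.35 in plants 15 and 39, so the left end of the loss in P06 is not settled by these probes.

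Single probes were tested with limma (1 mean per line, all 4 arrays, treat against a log2 ratio of 1, Benjamini-Hochberg adjustment over 951298 probes). In P06 against M92-220, 768 of the 95548 tested probes of probe-poor windows were lower (0.804%), on a background of 0.0875% over all probes tested. Of these, 758 lay on chromosome 7 and 0 on chromosome 10. In P05 against M92-220, 0 member probes were lower by limma (background 0.00463%), although 101 had an unadjusted p under 0.05 and eBayes against 0 with a mean beyond 1 called 153.

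The fit takes 1 estimate of the spread from both lines, and the P05 plants differed from each other on chromosome 10. Counts from other settings, such as eBayes or a plant left out, are of member probes only. They have no background over all probes here, so they are not read as enrichment. Without plant 15, 1308 member probes were called lower in P06, 480 of them on chromosome 10, and without plant 39 the count was 1309, with 480 again on chromosome 10. With P05 represented by plant 15 alone, whose spread was then taken from the P06 plants, 481 member probes were lower in P05, 467 of them on chromosome 10. With plant 39 alone there were 104, of which 76 lay on chromosome 14.

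Between the lines, 729 member probes were lower in P06 than in P05 (limma treat; background 0.0769%), all 729 on chromosome 7 and in 5 windows. Without plant 15 the count was 1216, with 457 on chromosome 10. No member probe was higher in P06 than in P05 (background 0.00021%; 1 at an unadjusted p under 0.05, and 1 by eBayes with a mean beyond 1), but without plant 15 there were 88, of which 76 lay on chromosome 14. A dye bias of a probe cancels in this comparison, because both lines were labeled with Cy3.

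Among the member probes called lower in P06, those with the largest mean decreases were Gm_CUST_P11107227 (chromosome 7, 25706630 to 25706682), Gm_CUST_P11108882 (27444927 to 27444986) and Gm_CUST_P11110771 (29359122 to 29359177), which lie in different windows of the same locus. Gm_CUST_P11107227 had ratios of −9.25 and −9.78 in plants 35 and 45, against −0.29 in plant 15 and −0.52 in plant 39. All 3 were not well above background in Cy3 in the P06 plants, so their order is not a measured one. Averaged over both P06 plants, their loss can be given only as at least 252.4-fold, 71.6-fold and 84.4-fold lower than M92-220. That bound compares the Cy5 signal with the lowest Cy3 signal well above background on the same array, averaged over both plants on the log2 scale. The bound of a single plant can lie below it. The adjusted p by limma treat was 2.2e-07, 4.2e-08 and 2.8e-07.

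Calls in the other direction were few. In P06, 2 member probes were higher than M92-220 by limma treat (background 0.00841%), and in P05, 3 were (background 0.00715%). They were Gm_CUST_P10391846 and Gm_CUST_P10415594 on chromosome 3, called in both lines, and Gm_CUST_P10049502 on chromosome 1, called in P05. All were not well above background in both dyes on all 4 arrays, so no fold is given for them. With 1 plant left out, the counts were 12 to 20 in P06 and 10 to 33 in P05.

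Probes at a log2 ratio of 1 or higher were about as frequent in probe-poor windows as elsewhere. Per 1000 probes there were 1.32, 1.36, 1.54 and 1.84 in probe-poor windows for plants 35, 45, 15 and 39, against 1.27, 1.39, 1.38 and 2.04 in remaining windows. The share over all probes was 0.127%, 0.138%, 0.139% and 0.203%. The difference of −0.0040 ± 0.150 per 1000 (SD, n = 4 arrays; exact permutation test, two-sided p = 1) was smaller than its spread over arrays. At 1 or higher in all 4 plants were 17 member probes (0.178 per 1000) and 173 probes of remaining windows (0.207 per 1000). All 17 were dim in Cy5 on every array, and 134, 137, 138 and 137 of the 173 were on the arrays of plants 35, 45, 15 and 39.

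A smaller group of member probes, nearly all outside the loci, was low in every plant. A ratio of −1 or lower in all 4 plants was found for 61 probes of probe-poor windows (0.638 per 1000) and for 175 of remaining windows (0.209 per 1000). The medians over the 61 were −1.32, −1.37, −1.11 and −1.39 in plants 35, 45, 15 and 39. The 61 include Gm_CUST_P11597888, at 15192925 in the first chromosome 10 locus. Its ratios were −5.37, −5.52, −5.33 and −1.14 in these plants, with Cy5 signals of 312, 328, 353 and 30.9. Nearly all the others were very bright in M92-220. Over the 61, the median Cy5 signal was 43791, 41386, 37012 and 44845 for the same plants, and 60, 60, 60 and 59 probes exceeded 10000. By comparison 0.832%, 0.853%, 0.672% and 0.822% of all probes in probe-poor windows exceeded 10000, and 0.343%, 0.356%, 0.248% and 0.375% in remaining windows. The median ratio of all member probes above 10000 was −0.33, −0.39, −0.40 and −0.47, so bright probes as a class were low in mutant over M92-220.

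Of these 61 probes, 29 lay in 5 groups of 3 or more within 10 kb of each other. The largest had 9 of 25 probes on chromosome 12, 24272557 to 24284336, with means of −1.45, −1.49, −1.15 and −1.57 in plants 35, 45, 15 and 39. The next had 7 of 18 probes on chromosome 5, 14960051 to 14965997, with means of −1.39, −1.40, −1.22 and −1.24. The others lay on chromosome 8 at 32397880 to 32400507 (5 of 7 probes), chromosome 6 at 30707115 to 30708048 (4 of 4) and chromosome 12 at 27952125 to 27956199 (4 of 9). In these groups the mutant signal was high too, with a median Cy3 of 7308 or more in every plant, which distinguishes them from the deleted loci. The parts of dye, saturation of the scanner and copy number in these ratios were not tested; on each array 1 of the 61 probes was marked as saturated in Cy5.

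The spread of the ratios was measured by the median absolute deviation (MAD), scaled so that it equals the standard deviation for normally distributed values, which the deletions move little. It was 0.186, 0.209, 0.177 and 0.194 in probe-poor windows for plants 35, 45, 15 and 39, against 0.196, 0.225, 0.184 and 0.202 in remaining windows. The probe-poor windows were thus slightly less scattered on every array, with a mean difference of −0.0104 ± 0.0038 (SD, n = 4 arrays; exact permutation test, two-sided p = 0.13). With normexp background the difference was −0.0021, and probe-poor windows were higher on 2 of 4 arrays. On single chromosomes the spread was lower in the probe-poor windows on 18, 17, 16 and 17 of 20 chromosomes in these plants.

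The direction depended on the measure. The standard deviation, which counts the deletions, was 0.660, 0.676, 0.438 and 0.270 in probe-poor windows of plants 35, 45, 15 and 39, against 0.225, 0.253, 0.214 and 0.253 in remaining windows. With the deleted intervals left out it was 0.219, 0.241, 0.210 and 0.233 against 0.221, 0.249, 0.210 and 0.235 in remaining windows, a mean difference of −0.0031 with probe-poor windows higher on 1 of 4 arrays. The spread of differences between successive probes of a window was 0.152, 0.167, 0.127 and 0.138 in probe-poor windows and 0.148, 0.164, 0.123 and 0.134 in remaining windows, higher in probe-poor windows in 4 of 4 arrays. Neighboring probes there also resembled each other less: among small ratios the correlation of a probe with the next was 0.35, 0.38, 0.48 and 0.47 in probe-poor windows and 0.42, 0.45, 0.53 and 0.52 in remaining windows. This is a description over probes of the same arrays, whose gaps differ between the 2 kinds of window.

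**Figure D4:**
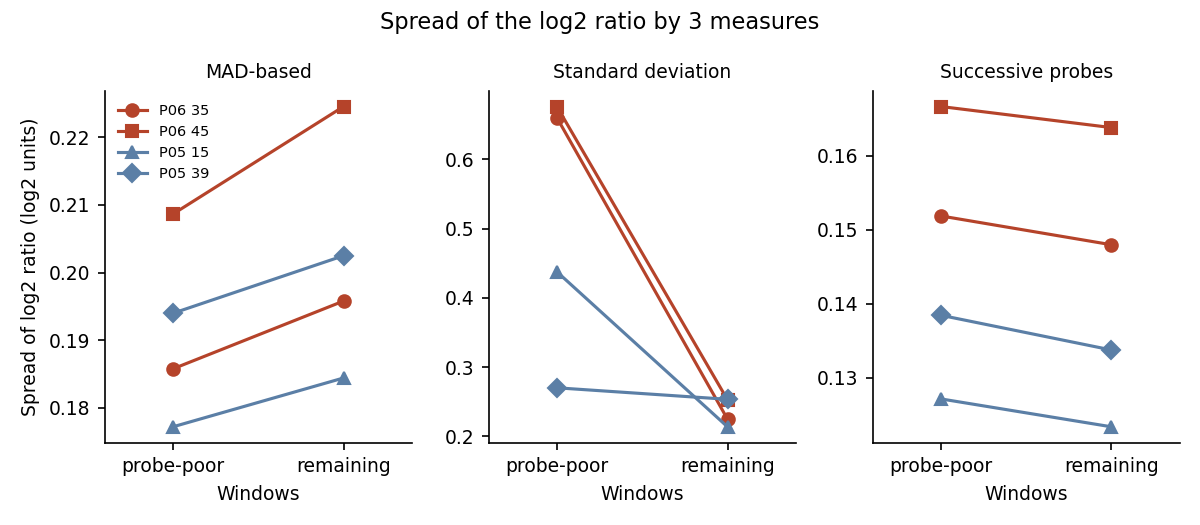
Spread of the log2 ratio (y axes, log2 units, which differ between panels and do not start at 0) in probe-poor and remaining windows by the MAD-based measure, the standard deviation and the differences between successive probes. Each line is 1 array. The first measure is lower in probe-poor windows on all 4 arrays and both others are higher.

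The difference in spread was also computed among probes of like brightness. When all probes were divided into 4 equal classes by Cy5 signal, the MAD-based spread was lower in probe-poor windows in the 3 dimmer classes on all 4 arrays. In the brightest class it was lower in plants 35 and 45 (0.180 and 0.185, against 0.184 and 0.190) and higher in plants 15 and 39 (0.175 and 0.175, against 0.172 and 0.168). By window, the spread averaged over arrays was 0.148 to 0.290 in the 279 probe-poor windows with fewer than 3 lost probes in every plant and 0.189 to 1.79 in the 12 others. The 5 windows of largest spread were chromosome 7 at 27 to 28 Mb (1.79), chromosome 10 at 15 to 16 Mb (1.42), chromosome 7 at 25 to 26 Mb (1.35), chromosome 10 at 20 to 21 Mb (1.15) and chromosome 7 at 28 to 29 Mb (0.995), all within the loci above.

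The level of the ratios differed between the classes in 3 plants. The median log2 ratio of probe-poor windows was 0.036, 0.043 and 0.016 in plants 35, 45 and 15 and −0.0024 in plant 39, against −0.0031, −0.0040, −0.00064 and 0.0015 in remaining windows. The mean difference was 0.025 ± 0.023 (SD, n = 4 arrays; exact permutation test, two-sided p = 0.25). Of the 291 window medians, 249, 254, 190 and 119 lay above 0 in plants 35, 45, 15 and 39, or 85.6%, 87.3%, 65.3% and 40.9%. In remaining windows the shares were 63.5%, 62.4%, 63.7% and 62.1%, so plant 15 was close to that share and plant 39 below it. Across the 291 probe-poor windows the median ratio was higher in windows with more probes (Spearman's rho 0.21, 0.26, 0.31 and 0.36 in plants 35, 45, 15 and 39), whereas across the 647 remaining windows it was lower in windows with more probes (rho −0.73, −0.76, −0.62 and −0.44). These are descriptions over windows that share arrays, without a test.

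Dim probes, those not well above background in Cy5, cannot show a loss, since M92-220 itself gave no signal there. They made up 0.738%, 0.748%, 0.758% and 1.21% of the probes in probe-poor windows on the arrays of plants 35, 45, 15 and 39, against 0.636%, 0.654%, 0.658% and 1.11% in remaining windows. The difference was 0.100 ± 0.0047 percentage points (SD, n = 4 arrays; exact permutation test, two-sided p = 0.13), positive in 4 of 4, and with the window starts shifted it was 0.156. M92-220 was the same on all arrays, so these 4 values are repeated readings of 1 genotype.

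Among probe-poor windows, a pair had by far the largest dim shares. Chromosome 20 at 22 to 23 Mb had 22.5%, 22.0%, 25.7% and 24.8% of its 218 probes dim on the 4 arrays, and chromosome 18 at 27 to 28 Mb had 19.5%, 19.9%, 20.6% and 20.6% of its 287. Chromosome 9 at 14 to 15 Mb, chromosome 13 at 7 to 8 Mb and chromosome 1 at 39 to 40 Mb followed with means of 7.72%, 7.71% and 7.71%. Without the whole of chromosomes 18 and 20, which hold this pair and other windows of both kinds, the difference was −0.128 percentage points, lower in probe-poor windows on 4 of 4 arrays. Leaving out the pair alone was not tested. The median over windows was also lower in probe-poor windows, by 0.073 percentage points. With few probes, a window often has no dim probe at all. On the array of plant 35 this held for 116 of 291 probe-poor and 76 of 647 remaining windows, so the direction of that median cannot decide the question. On single chromosomes the share was higher in probe-poor windows on only 9, 9, 8 and 8 of 20.

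**Figure D5:**
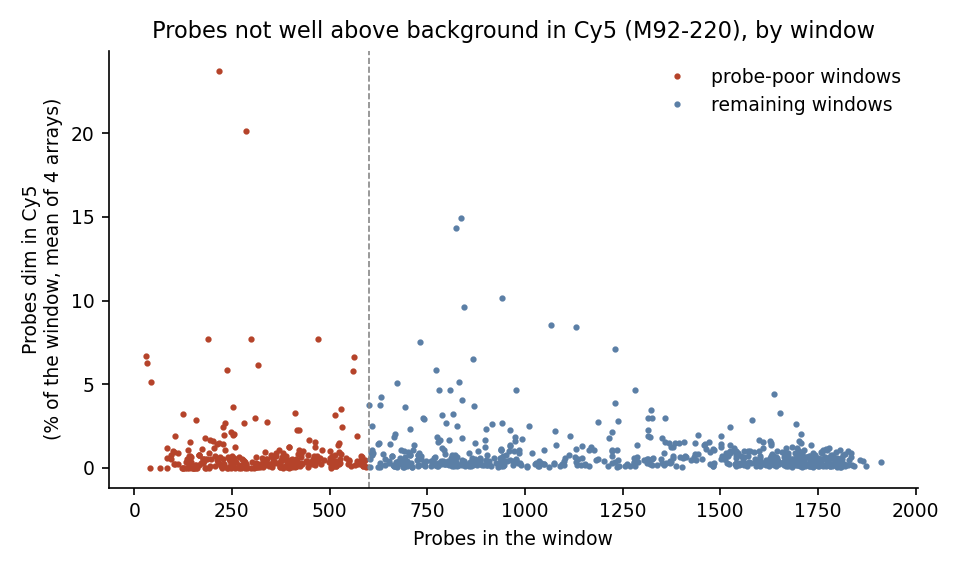
Percent of probes not well above background in Cy5, as the mean of 4 arrays (y axis), against the number of probes in the window (x axis), 1 point per window; the dashed line marks 600 probes. Most probe-poor windows lie as low as the remaining ones. The window at 22 to 23 Mb on chromosome 20 and that at 27 to 28 Mb on chromosome 18 stand above 20%.

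The dim probes of probe-poor windows occurred in runs more than those of other windows did. On all 4 arrays, 652 member probes (0.682%) and 4864 probes of remaining windows (0.581%) were dim in Cy5. Of the 652, 42.8% lay in runs of 3 or more consecutive probes, compared with 21.3% of the 4864. A few windows held much of this: the 5 windows with the most such probes had 29.9% of the 652, against 9.97% of the 4864 in remaining windows. The share in runs without those windows was not tested. The longest member run had 18 probes on chromosome 18, 27416598 to 27530606 (114.0 kb), with a median Cy5 signal of 6.45 to 7.36 and a median Cy3 signal of 8.40 to 10.9 over the arrays. Of the 652 probes, 98.0% were also dim in Cy3 on all arrays, and they occurred in 163 of the 291 windows.

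In Cy3, the dye of the mutant, 1.70%, 1.69%, 1.20% and 1.44% of probes in probe-poor windows were dim in plants 35, 45, 15 and 39, against 0.689%, 0.668%, 0.734% and 1.30% in remaining windows. The difference was 0.662 ± 0.430 percentage points (SD, n = 4 arrays; exact permutation test, two-sided p = 0.13), positive in 4 of 4. Plant by plant it was 1.01, 1.02, 0.470 and 0.145 percentage points in plants 35, 45, 15 and 39. With the probes of deleted intervals left out it was 0.113, 0.126, 0.104 and 0.116, so that the plants with long deletions no longer stood apart.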

How the data were processed

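Genomic DNA of 4 plants was hybridized against M92-220 on Agilent 2-color arrays. For each array the authors deposited the scanner output (version 12.0.0.7 of Agilent Feature Extraction), which holds a processed intensity for each dye (background-subtracted and dye-normalized by that software, per the file headers) and, per the file headers, a log10 ratio whose error weighted the interval search. The authors also deposited a table of log2 ratios, which differed from the log2 ratio of the processed signals by a constant per array, within 0.01 for 99.98% or more of probes, and whose columns had medians of −0.051 to −0.024. Probe positions are those of Glyma.Wm82.a2.v1; 8054 probes listed on Chr014 were taken as chromosome 14.

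Spots flagged as non-uniform or population outliers (210 to 861 per array) were dropped, spots of a probe averaged, and the log2 ratio of mutant over M92-220 centered on each array's median, without loess or quantile steps, for 951615 probes. Precision is limited by the number of arrays. Of these probes, 18553 lay outside whole windows. Deleted intervals of any plant up to 1000 kb apart were joined into 1 locus. The tests of single probes used R 4.3.3 with limma 3.58.1 (treat, 1 mean per line), and other calculations were done in Python 3.11.15, numpy 2.4.6, pandas 2.3.3 and numba 0.67.0. Scripts were tested on data with known answers. Since M92-220 entered only as the other channel, its own spread is in no test. The 2 kinds of window were compared within each array by an exact two-sided sign-flip test.

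Alternatives were: each plant left out, normexp background (on median signals, since mean signals were not used here), the deposited ratios, other centering, marked spots kept, only probes bright in Cy5, other limits on the probe count, shifted windows, chromosomes left out or compared with themselves, a loss limit of −1, plain runs, other measures of spread, and other limma settings. The windows, lists and tests were chosen with earlier results of these data known. Named windows were those with the fewest probes (5), at the limit, with 3 or more lost probes, with the largest spread (5) or dim share (5), and named probes the 3 lowest and 3 highest calls per line; the groups of probes low in all 4 plants and the stretch inside the chromosome 7 locus were chosen after their values were seen. No sequences are shown, because no genome of this build was used here.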

Additional observations from a re-analysis of the deposited data

Results flagged for a closer look

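The lines differed at 729 probes of probe-poor windows, lower in P06 than in P05 by limma treat with Benjamini-Hochberg adjustment, a test of the difference between the lines itself. These were 0.763% of the member probes tested, on a background of 0.0769% over all probes tested. All 729 lay on chromosome 7 in 5 windows, so they are not separate differences between the lines. Over the locus from 25564698 to 29366100 in these windows the P06 plants averaged −4.05 and −4.09 and the P05 plants −0.0014 and −0.038. That locus was built from intervals called deleted in the P06 plants, so its means describe it and are no further support. The P05 plants differed from each other at other loci, and the count changed when plant 15 was left out. At 14796450 to 15370810 on chromosome 10, plant 15 averaged −5.00 and plant 39 −0.052. At 14337661 to 14594509 on chromosome 14, they averaged 0.047 and −4.22. No cause was tested.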

How the results depend on the processing

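With 1 plant left out, the class differences kept their direction and ranged from 5.78 to 9.74 lost probes per 1000, 1.71 to 3.10 lost probes per Mb, 6.97 to 11.8 deleted kb per Mb, −0.0115 to −0.0086 in spread, 0.017 to 0.034 in median ratio, and 0.0987 to 0.102 (Cy5) and 0.542 to 0.834 (Cy3) percentage points of dim probes. Counts of member probes ranged from 744 to 1309 (P06 lower than M92-220), 12 to 20 (P06 higher), 0 to 481 (P05 lower), 10 to 33 (P05 higher), 728 to 1216 (P06 lower than P05) and 0 to 88 (P06 higher than P05, the 88 without plant 15). Where a line is left with 1 plant, that plant is assumed to vary like those of the other line. These counts have no background over all probes beside them.

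Of 90 other values of the class differences, 84 kept their direction. The spread was 0.275 with the standard deviation and 0.0038 from successive probes. As alternatives chosen after seeing the data, lost probes per Mb gave −0.051 without chromosomes 7 and 10, the Cy5 dim share −0.128 without chromosomes 18 and 20 and −0.073 as a median over windows, and the Cy3 dim share −0.050 as that median. Normexp background took the spread to −0.0021, lower in probe-poor windows on 2 of 4 arrays, and plain runs of lost probes gave 4.94 kb per Mb. With shifted windows, lost probes per 1000 (6.93) and deleted kb per Mb (8.68) were higher in probe-poor windows on 3 of 4 arrays.

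With normexp, the counts of higher probes were 0 in P06 and 0 in P05, and Gm_CUST_P10391846 went to −0.066 (P06) and −0.18 (P05), Gm_CUST_P10415594 to −0.059 and −0.16, and Gm_CUST_P10049502 to −0.20 (P05). With only probes bright in Cy5 the higher counts were 0 and 0, and 1 probe was lower in P05, as with the deposited ratios (1). The fit of the P06 arrays alone called 1309 lower and 20 higher, and that of the P05 arrays alone 10 higher. By eBayes against 0 with a mean beyond 1, P06 had 1471 probes below and 73 above M92-220, P05 had 153 below and 91 above, and 1 probe exceeded P05 in P06. Causes were not tested. The other 38 of 52 counts stayed within 1.5 times. Restricting to probes bright in Cy5 leaves no Cy5-dim share, and the dim shares do not use ratios, so ratio settings were not run on them. No paired analysis was possible because P06 and P05 plants share no replicate number in the labels. Losses shorter than the gaps between probes, up to 707.6 kb here, cannot be seen.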
